A study of Arabidopsis thaliana with 58 samples.

Results

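SDG2cd–ZF is the catalytic domain of the H3K4 methyltransferase SDG2 fused to an artificial zinc finger that binds the *FWA* promoter, and its transgene was driven by the *UBQ10* promoter, which is active in most tissues. The material was 8 lines labelled SDG2-ZF in *rdd* (lines 1, 7, 15, 18, 19, 21, 24 and 30), set against 2 *rdd* plants without the transgene. These 10 libraries were chosen by their titles from 47 libraries with files and 58 in all. All plants were Columbia-0 *Arabidopsis thaliana*, and leaves were taken at an age of 4 to 5 weeks. The *rdd* triple mutant carries *ros1-3*, *dml2-1* and *dml3-1*, and the 8 lines and both control plants share it. Each line has its own number in the labels and 1 library, so differences between lines and between plants of a line cannot be told apart. For comparison, 8 SDG2-ZF lines in Col-0 and 3 Col-0 plants with intact demethylases were used, and 3 *fwa* plants, whose *FWA* is unmethylated, gave the background of the assay. In the lines, which lack 3 DNA demethylases, CHH methylation at *FWA* was higher than in *rdd* alone, and CG methylation was lower by a smaller proportion.

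Cytosines of plant DNA are methylated in the CG, CHG and CHH contexts, where H is A, C or T. CG methylation is copied after replication by MET1, CHG methylation is kept by CMT3 together with H3K9 methylation, and CHH methylation must be set anew, at *FWA* by the RNA-directed DNA methylation pathway and its methyltransferase DRM2. ROS1, DML2 and DML3 are glycosylases that cut out methylated cytosine. *FWA*, which encodes a homeodomain transcription factor, is silenced in leaves by methylation of tandem repeats around its transcription start, and plants that lose this methylation express the gene and flower late. DNA was bisulfite converted, which turns unmethylated cytosine into uracil, and 3 regions were amplified and sequenced (BS-PCR-seq). The methylation level of a cytosine is the percentage of its reads that kept a C, and a level by context is the mean over its cytosines.

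On chromosome 4 of TAIR10, region 1 spans chr4:13038143-13038272 and ends 88 bases before the annotated start of *FWA* (AT4G25530, plus strand, chr4:13038360-13042464). Region 2, chr4:13038356-13038499, covers exon 1 (chr4:13038360-13038417) and part of the first intron. Region 3, chr4:13038568-13038695, covers the end of exon 2 (chr4:13038520-13038628) and part of the second intron. Both exons are untranslated, since the coding sequence begins at chr4:13039312. In all, 74 cytosines had at least 10 reads in every one of the 10 libraries, and every one lies on the minus strand. They are 14 CG, 3 CHG and 57 CHH cytosines, and region 1 holds no CHG cytosine with that many reads.

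The windows that carry the pattern are printed from the minus strand, 5′ to 3′, read from the RefSeq TAIR10.1 chromosome at the coordinates of the files. Capitals mark the measured cytosine with the bases that give its context. The first set holds CHH cytosines of region 1 and exon 1 with large differences between lines and *rdd*, on chr4:13038230-13038250, chr4:13038236-13038256, chr4:13038243-13038263 and chr4:13038407-13038427.
CHH 13038240: cggcccataaCTCtttgatat
CHH 13038246: gggcttcggcCCAtaactctt
CHH 13038253: gatgtatgggCTTcggcccat
CHH 13038417: taaaagcaacCTTaaacaacc
The second set holds CG cytosines of the tandem repeat, each copy 1 site followed by its partner in copy 2, to show how alike the sequences are whose levels are compared. The windows lie on chr4:13038354-13038374, chr4:13038565-13038585, chr4:13038458-13038478, chr4:13038668-13038688, chr4:13038466-13038486 and chr4:13038676-13038696.
CG 13038364, copy 1: aaccctagagCGgcgctcgta
CG 13038575, copy 2: aaccgtaaagCGgtgctcgta
CG 13038468, copy 1: atcgataaatCGtaagaagaa
CG 13038678, copy 2: atcgataaatCGtaagaagaa
CG 13038476, copy 1: tcccacaaatCGataaatcgt
CG 13038686, copy 2: tcctacaaatCGataaatcgt

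Across the 3 regions, mean CHH methylation was 2.37 times as high in the lines as in *rdd*. The CHH level was lowest in line 19 with 3.83%, had a median of 7.78% and was highest in line 30 with 9.99%, against 3.40% and 3.04% in the 2 *rdd* plants. Every line therefore lay above both *rdd* plants. The means were 7.64% ± 1.90 in the lines (SD, n = 8) and 3.22% ± 0.254 in *rdd* (SD, n = 2), and the lines were 4.42 percentage points higher (p = 0.0222 by a two-sided exact permutation over the libraries, adjusted p = 0.0407 over 11 levels by context and region). The *fwa* plants, measured the same way, held 0.123% ± 0.0115 CHH methylation (SD, n = 3), far below either group. With 8 lines and 2 plants the test has 45 splits and 0.0222 is the smallest p it can give. Every call of a level or cytosine of *FWA* in the lines against *rdd* rests on this smallest value.

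**Figure D1:**
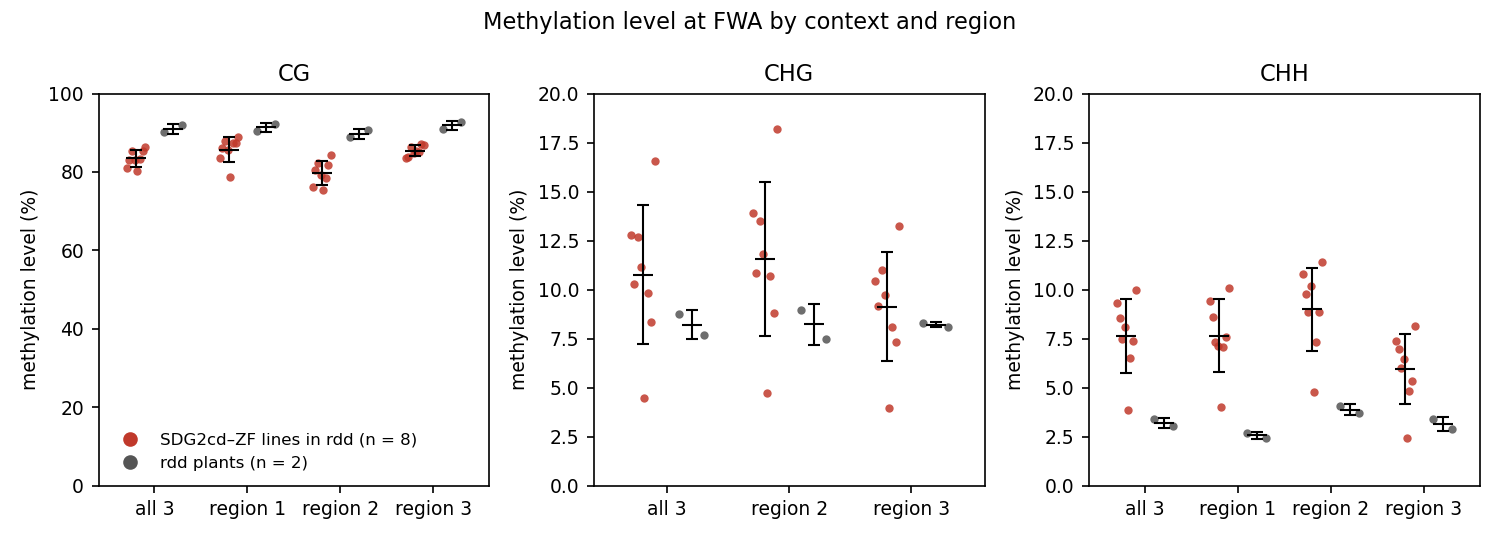
Methylation level in percent, by context and region, for each SDG2cd–ZF line in *rdd* (red) and each *rdd* plant (grey); horizontal ticks are means and bars 1 SD. CHH points of the lines, 3.83% to 9.99% over the 3 regions, lie above the *rdd* points at 3.40% and 3.04%, CG points lie below, and CHG points of the groups overlap.

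Mean CHH methylation was higher in the lines in all 3 regions, and the difference passed in regions 1 and 2. In region 1, upstream of the gene, the lines averaged 7.66% ± 1.85 and *rdd* 2.56% ± 0.169 (SD, n = 8 and 2), a ratio of 2.99 and a difference of 5.10 points (exact permutation p = 0.0222, adjusted p = 0.0407). This value depends on how cytosines are combined, being 1.69 points with the median over cytosines and 10.1 points with a minimum of 1 read, and neither passed (adjusted exact permutation p = 0.244 and 0.140). In region 2, around exon 1, they averaged 9.00% ± 2.12 and 3.88% ± 0.260, a ratio of 2.32 with the same exact p and adjusted p. In both regions every line lay above both *rdd* plants. In region 3, around exon 2, the lines averaged 5.94% ± 1.77 and *rdd* 3.14% ± 0.342, and 7 of 8 lines lay above both plants, while line 19 with 2.45% lay below 3.38% and 2.89%. That difference of 2.81 points did not pass (exact permutation p = 0.0889, adjusted p = 0.122), but without line 19 it was 3.31 points with an adjusted p of 0.0382 by the same exact test. Of the 17 CHH cytosines of region 3, 15 had a higher mean in the lines.

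Single cytosines show where within the regions CHH methylation was gained. By the exact permutation test with adjustment over the 74 cytosines, 30 cytosines were higher in the lines, which is 40.5% of those tested, and all 30 are CHH. They are 8 of 19 CHH cytosines in region 1, 15 of 21 in region 2 and 7 of 17 in region 3. All called cytosines share the smallest p, so the adjustment passes them together or not at all. A call at a single cytosine therefore depends on how many others reach that p, and the calls are not separate pieces of evidence. At 38 cytosines, 51.4% of those tested and again all CHH, every line lay above both *rdd* plants. Of the 57 CHH cytosines, 54 had a higher mean in the lines, with a median difference of 2.83 points and a median ratio of 3.03. A quasi-binomial logistic model of the read counts, which is not bound to the same smallest p, called 23 CHH cytosines higher (31.1% of those tested), 6 of them in region 1, and all 23 are among those called by the exact test. Leaving out any 1 line, 19 included, leaves 36 splits and raises the smallest p to 0.0278. With any line but 19 left out, the exact test called 0 cytosines. The model then still called 17 to 20 CHH cytosines, whereas without line 19 it called 43 and the exact test 41, and without either *rdd* plant both called 0 CHH cytosines.

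In region 1 the difference was unevenly spread along the DNA. From -220 to -160 bases relative to the start of *FWA*, 10 CHH cytosines averaged 1.35% in the lines and 0.833% in *rdd*, with a median difference of 0.54 points. From -160 to -130 bases, the 3 CHH cytosines averaged 5.51% in the lines and 1.38% in *rdd*. From -130 to -100 bases, the 6 CHH cytosines averaged 19.2% in the lines and 6.03% in *rdd*, with differences between 5.75 and 18.4 points. The 6 nearest the gene thus had the largest differences of the region, and these intervals were drawn after the values were seen.

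The largest rise of all was at position 13038246 in that last interval. Its level was lowest in line 19 with 16.6%, had a median of 28.4% and was highest in a line with 36.4%, against 10.47% and 9.71% in the *rdd* plants. The mean was 18.4 points higher in the lines (exact permutation p = 0.0222, adjusted p = 0.0444), and the lowest line exceeded the higher *rdd* plant. At 13038253 the lines ranged from 14.5% to 30.1% with a median of 25.3%, against 9.78% and 7.98% in *rdd*, and at 13038240 they ranged from 11.1% to 27.3% with a median of 20.2%, against 5.60% and 5.40%. The groups overlapped at neither of them, and the differences of 15.5 and 14.8 points passed with the same exact p and adjusted p. Positions 13038245 (19.8% ± 4.13 in the lines and 6.20% in *rdd*) and 13038238 (15.1% ± 3.82 and 3.92%) complete the named sites of region 1, and both passed.

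In region 2 the largest rises lay at the end of exon 1 and just inside the first intron. At 13038417, the last base of exon 1, the lines ranged from 11.5% to 26.6% with a median of 22.5%, against 8.02% and 6.88% in the *rdd* plants. At 13038421 they averaged 19.8% ± 4.67, against 8.01% in *rdd*, and at 13038418 they averaged 17.1% ± 4.27, against 5.49%. Every line exceeded both plants at these 3 neighbouring cytosines, whose differences of 13.9, 11.8 and 11.6 points passed (exact permutation p = 0.0222, adjusted p = 0.0444). The highest CHH level of region 2 was at 13038428, with 25.7% ± 5.87 in the lines and 14.4% in *rdd*, where 7 of 8 lines lay above both plants and the difference of 11.3 points did not pass (adjusted p = 0.0731, exact test). The highest level of region 3, at 13038639, was 18.95% ± 5.55 in the lines and 13.7% in *rdd*, and its 5.24 points did not pass (adjusted p = 0.279, exact test). The largest rises of region 3 were 9.56 points at 13038628 and 8.09 points at 13038629. At both, every line exceeded both plants and the difference passed (exact permutation p = 0.0222, adjusted p = 0.0444), but the quasi-binomial model called neither.

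One CHH cytosine went the other way. At 13038602 in exon 2 the lines ranged from 1.07% to 4.83% with a median of 2.64%, against 5.85% and 5.16% in *rdd*. Every line lay below both plants, and the level fell by 2.66 points (exact permutation p = 0.0222, adjusted p = 0.0444), although the quasi-binomial model did not call it. No other CHH cytosine had all lines below both plants.

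CHH sites were also grouped by the bases that follow the cytosine, as a description without a test. Of all 57 CHH cytosines, 30 were called higher. All 4 CAT cytosines, all 3 CTC cytosines and 6 of 8 each of CTT and CCA were called higher, against 3 of 15 CAA and 0 of 6 CTA. Between these stood CAC with 3 of 4, CCT with 3 of 5 and CCC with 2 of 4. The classes are small, and a site that was not called can still have a large rise. The CTA cytosine 13038428 rose by 11.3 points, with 7 of 8 lines above both plants. As 17 pairs of CHH cytosines stand at matching places of the tandem repeat, some sequences are counted in both copies. The CTA cytosines had a mean of 10.9% in the lines and 7.28% in *rdd* and a median ratio of 1.40, but they were unlike each other, with 11.1% to 14.4% in *rdd* at 13038370, 13038428 and 13038639 and 1.07% to 2.13% at the other 3, and the CTT cytosines averaged 11.3% in the lines and 3.72% in *rdd*, with a median ratio of 3.28.

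**Figure D2:**
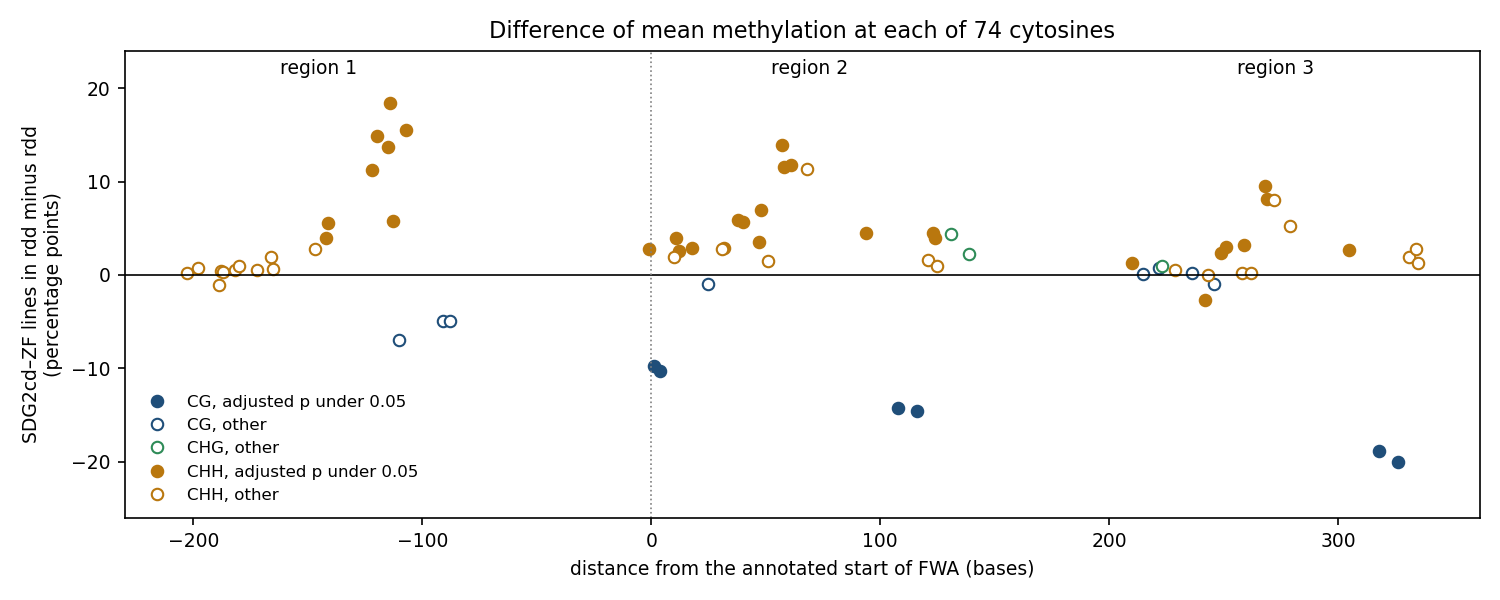
Difference of mean methylation, SDG2cd–ZF lines in *rdd* minus *rdd*, in percentage points, at each of the 74 cytosines against distance from the annotated start of *FWA* in bases (dotted line). Filled points passed the exact permutation test at an adjusted p under 0.05. The largest CHH rises lie in region 1 near the gene, with 18.4 points at most, and around the end of exon 1. The CG difference reaches -20.03 points at the far end of region 3.

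CG methylation was lower in the lines than in *rdd*, though it stayed high. Over the 3 regions it was lowest in line 19 with 80.3%, had a median of 83.2% and was highest in line 30 with 86.4%, against 90.1% and 91.9% in the *rdd* plants. Every line lay below both plants. The means were 83.5% ± 2.13 and 91.0% ± 1.22 (SD, n = 8 and 2), and CG methylation fell by 7.54 points (exact permutation p = 0.0222, adjusted p = 0.0407). It fell by 9.97 points in region 2 and fell by 6.47 points in region 3, with the same exact p and adjusted p. When each level was the median of its cytosines, region 3 differed by -0.148 points and did not pass (adjusted exact permutation p = 0.778), with 4 of its 6 CG cytosines differing by about 1 point or less. In region 1 the lines averaged 85.7% ± 3.29 and *rdd* 91.3% ± 1.27, and all 8 lines lay below both plants, but the difference of -5.62 points did not pass (exact permutation p = 0.0667, adjusted p = 0.105). Without line 19, which had 78.6% there, this difference was -4.61 points and its adjusted p by the exact test 0.0382.

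The CG fall was uneven across sites. Of the 14 CG cytosines, 6 were called lower by the exact permutation test, and together with the CHH cytosine at 13038602 they make 9.46% of the 74. The quasi-binomial model called the same 6 CG cytosines, which are 8.11% of the 74, and 0 CG cytosines were higher by either test. Every line lay below both *rdd* plants at 9 CG cytosines, which with 13038602 make 13.5% of the 74. The 6 called sites are 4 in region 2 and 2 in region 3, and among these 6 alone the differences grew with distance into the gene. The uncalled CG cytosines lying between them, 13038385 and those of exon 2, differed by -1.02 to 0.72 points. Over all CG cytosines the fall therefore did not grow steadily with distance. Without any 1 line but 19 the model still called 6 CG cytosines lower and the exact test 0, without line 19 both called 8, and without *rdd* plant 1 or plant 2 the model called 2 or 0.

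At 13038361 and 13038364, on exon 1 just past the start of *FWA*, the lines averaged 71.8% ± 4.20 and 82.3% ± 3.68, against 81.5% and 92.7% in *rdd*, differences of -9.73 and -10.3 points. At 13038468 in the first intron the lines ranged from 72.0% to 81.3% with a median of 76.3%, against 89.4% and 92.1% in *rdd*, and at 13038476 from 72.1% to 84.9% with a median of 78.8%, against 92.6% and 95.04%. Their differences of -14.2 and -14.5 points were close in size, and the groups overlapped at neither. At 13038678 in the second intron the lines ranged from 58.6% to 67.4% with a median of 63.2%, against 80.9% and 83.4% in *rdd*, and at 13038686 from 66.5% to 77.3% with a median of 72.2%, against 91.9% and 92.6%. The highest line remained more than 10 points below the lower *rdd* plant at both, and the differences were -18.8 and -20.03 points (exact permutation p = 0.0222 and adjusted p = 0.0444 at each of the 6 sites).

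The other 8 CG cytosines did not pass. In region 1, 13038250 had 83.8% ± 3.27 in the lines and 90.8% in *rdd* (exact permutation p = 0.0444, adjusted p = 0.0731), 13038269 had 83.2% ± 3.61 and 88.1%, and 13038272 had 90.2% ± 3.08 and 95.1%, each with all 8 lines below both plants. In exon 1, 13038385 had 88.9% ± 1.75 in the lines and 89.9% in *rdd*. The 4 CG cytosines of exon 2 were the most alike between groups, with 95.5% in the lines and 95.4% in *rdd* at 13038575, 93.8% and 93.1% at 13038582, 95.2% and 94.98% at 13038596, and 92.5% and 93.5% at 13038606. The differences at these 4 sites lay between -1.004 and 0.72 points, and those at 13038385, 13038575, 13038596 and 13038606 changed sign when an *rdd* plant was left out.

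**Figure D3:**
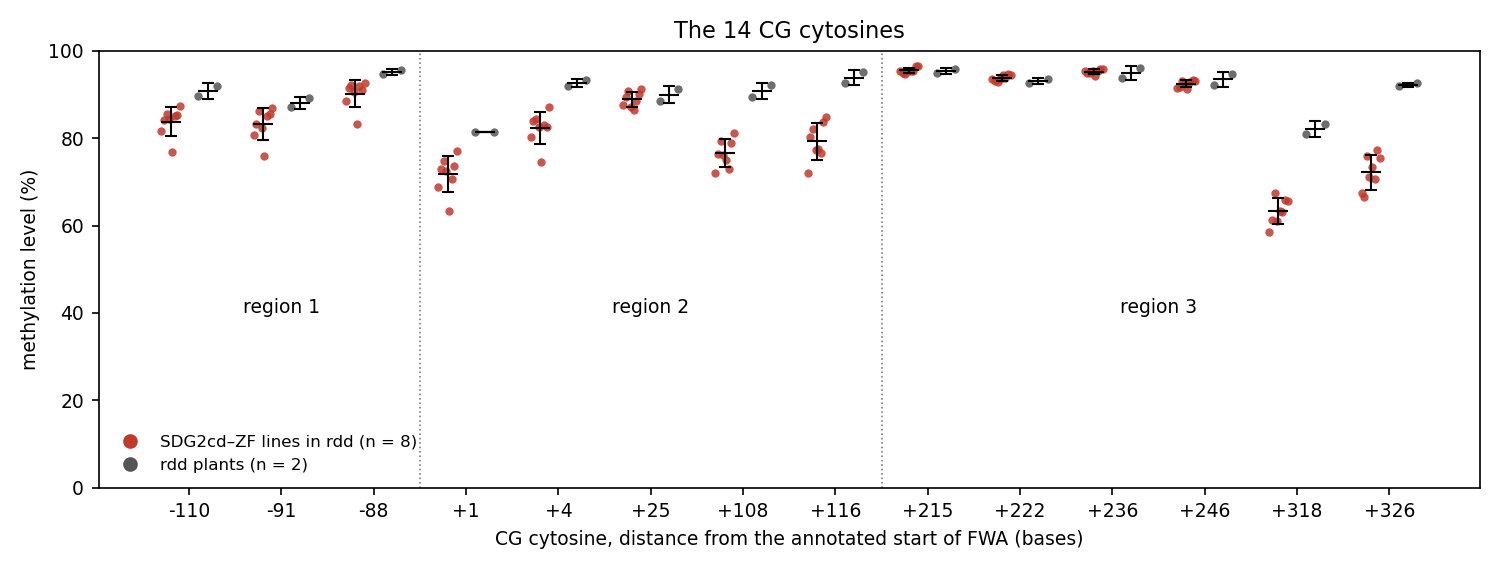
Methylation level in percent at each of the 14 CG cytosines, labelled by distance from the annotated start of *FWA* in bases, for the 8 SDG2cd–ZF lines in *rdd* (red) and the 2 *rdd* plants (grey); ticks are means and bars 1 SD. The groups coincide at the 4 sites of exon 2 and are farthest apart at the last 2 sites, where the differences are -18.8 and -20.03 points.

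The CG pattern can be read against the tandem repeat. Copy 1 (chr4:13038335-13038535) and copy 2 (chr4:13038546-13038745) align over 200 bases, of which 190 are identical (95%). A measured CG stands at the same place of both copies in 4 pairs. The pair 13038468 and 13038678, whose printed windows are the same letter for letter, and the pair 13038476 and 13038686 fell in both copies. The pair 13038385 and 13038596 passed in neither copy. The pair 13038364 and 13038575 parted, with -10.3 points at the start of exon 1 and 0.07 points at the matching place of copy 2, whose window differs at a few bases as printed. Of 17 CHH pairs, both partners had a higher mean in the lines in 15, and the difference was larger in copy 1 in 15, with medians of 3.93 points in copy 1 and 2.37 in copy 2. The falling cytosine 13038602 had 13038391 as its partner, which was 2.77 points higher in the lines. Copies were compared as a description, with no test.

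CHG methylation was measured at only 3 cytosines and no difference passed. Over the regions it was lowest in line 19 with 4.46%, had a median of 10.7% and was highest in line 30 with 16.5%, against 8.73% and 7.70% in the *rdd* plants. The groups overlapped, with 6 lines above both plants and 1 below. The means were 10.7% ± 3.55 and 8.22% ± 0.728, a difference of 2.53 points (exact permutation p = 0.356, adjusted p = 0.391). The difference was 10.9 points with a minimum of 1 read, which lets in region 1 CHG cytosines that have under 10 reads and in some libraries none, and 0.92 points with the median over cytosines, and neither passed (adjusted exact permutation p = 0.416 and 0.660). In region 2 the lines averaged 11.6% ± 3.95 and *rdd* 8.22% ± 1.03, and in region 3 they averaged 9.13% ± 2.77 and 8.20% ± 0.133. At 13038491 the lines had 19.2% ± 6.57 and *rdd* 14.8%, at 13038499 they had 3.92% ± 1.39 and 1.67%, and at 13038583 9.13% and 8.20%. The site with the most separated groups was 13038499, where 7 of 8 lines exceeded both plants (exact permutation p = 0.0667, adjusted p = 0.103). With line 19 left out, 1 CHG cytosine was called higher by each test.

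The lines varied together in CHG and CHH. Across the 8 lines, Pearson's r between the CHG and CHH levels was 0.895 (exact permutation p = 0.00446, adjusted p = 0.0134 over 6 relations) and Spearman's rho 0.881 (exact permutation p = 0.00724, adjusted p = 0.0435). Line 19 was lowest and line 30 highest in both contexts. Without both of these lines r was 0.528, and without line 19 or line 30 alone it was 0.769 or 0.869 and no longer passed (adjusted exact permutation p = 0.123 and 0.0766), so the relation rests on them. No relation of CG to the other contexts passed, with r = 0.484 to CHH (exact permutation p = 0.225, rho = 0.286 with p = 0.501) and r = 0.585 to CHG (exact permutation p = 0.122, rho = 0.405 with p = 0.327). Without lines 19 and 30 both values of r were negative, -0.642 and -0.411. Without line 1, r was 0.792 between CG and CHH and 0.808 between CG and CHG, each with an adjusted exact permutation p of 0.0363.

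Depth moved with these levels. The median reads per cytosine were 12661 to 31605 in the lines, with line 30 lowest and line 19 highest, and 27758 and 30551 in the *rdd* plants. Across the lines, depth had r = -0.896 with CHH (exact permutation p = 0.00766, adjusted p = 0.0153, rho = -0.833 with an adjusted p of 0.0461), r = -0.871 with CHG (exact permutation p = 0.00394, adjusted p = 0.0134, rho = -0.762 with an adjusted p of 0.0735) and r = -0.711 with CG (exact permutation p = 0.0231, adjusted p = 0.0346, rho = -0.571 with an adjusted p of 0.227). Without lines 19 and 30, r was -0.328, -0.457 and -0.166. Leaving out line 19 alone ended all 3 calls (adjusted exact permutation p = 0.227 for CHH, 0.123 for CHG and 0.340 for CG), as did leaving out line 30 alone (0.0766, 0.0766 and 0.141), and leaving out line 15 ended that for CG (0.0958). The 2 *rdd* plants were deeper than 7 of the 8 lines, and the part of depth in the CHH difference was not tested. Counting error was small beside all of this, since 95% Wilson intervals had a median half-width of 0.343 points and at most 1.15 points over 740 values. The intervals cover counting error only.

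**Figure D4:**
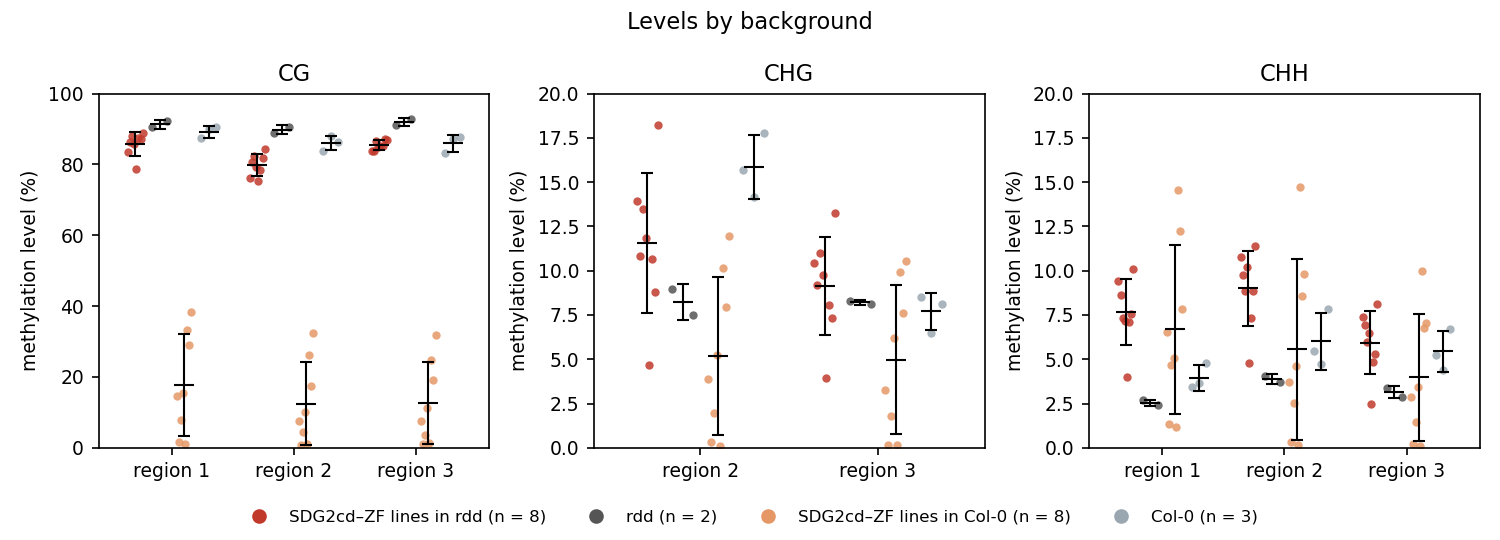
Methylation level in percent by context and region in the 8 SDG2cd–ZF lines in *rdd*, the 2 *rdd* plants, the 8 SDG2cd–ZF lines in Col-0 and the 3 Col-0 plants; ticks are means and bars 1 SD. CG was retained in the lines in *rdd* at 83.5% over the regions, against 13.7% in the lines in Col-0, while CHH levels of the lines in *rdd* and in Col-0 overlap.

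The lines in Col-0 show how the same transgene went with methylation where the demethylases were intact. The paper reports that the fusion protein was in general slightly less abundant in *rdd* than in Col-0, although several *rdd* lines had as much or more. The part of protein level in the contrast of backgrounds was not tested. Over the regions, CG averaged 83.5% ± 2.13 in the lines in *rdd* and 13.7% ± 12.1 in the lines in Col-0 (SD, n = 8 each, adjusted exact permutation p = 0.000427). To compare effects, the mean of the untransformed plants was taken from the lines of each background and the background was permuted over the 16 lines, with the control means taken as fixed. The effect on CG was -7.54 points in *rdd* and -73.0 points in Col-0, a difference of 65.5 points (adjusted exact permutation p = 0.000342). The effect on CHG differed by 10.6 points over the regions (adjusted exact permutation p = 0.000855) and by 14.0 points in region 2 (adjusted p = 0.000342), and in region 3 by 3.67 points, which did not pass (adjusted p = 0.0663, exact permutation).

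For CHH the levels of the lines showed no difference between backgrounds that passed, while the effects differed in regions 2 and 3. Over the regions the lines in *rdd* averaged 7.64% ± 1.90 and the lines in Col-0 5.46% ± 4.47, a difference of 2.18 points that did not pass (adjusted exact permutation p = 0.248). Nor did the differences of 0.976 points in region 1, 3.45 in region 2 and 1.96 in region 3 (adjusted exact permutation p = 0.601, 0.134 and 0.226). The effects, each against its own untransformed plants, differed by 5.57 points in region 2 and 4.28 points in region 3 (adjusted exact permutation p = 0.0209 and 0.0176). With a single Col-0 plant as control, labelled Col-0-Rep2 and sequenced far less deeply than the other 2, these were 4.28 and 3.24 points and did not pass (adjusted exact permutation p = 0.0662 and 0.0642). In region 1 the effect was 5.10 points in *rdd* and 2.71 points in Col-0, where 5 of 8 lines exceeded all 3 Col-0 plants with a mean of 6.68% ± 4.77 against 3.97% ± 0.736, and the difference of 2.38 points between the effects did not pass (adjusted exact permutation p = 0.207). From -130 to -100 bases relative to the start of *FWA*, where the rise in *rdd* was largest, the lines in Col-0 averaged 16.4% and Col-0 8.67%.

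The *rdd* plants were themselves below the mean of the 3 Col-0 plants in CHH at 57 of 57 cytosines, and above it in CG at 14 of 14. That mean takes in plants with median depths of 502480 and 407158 reads, against 27758 and 30551 in *rdd*. The remaining Col-0 plant, with 26112, had 4.27% CHH and 88.0% CG over the regions. The *rdd* plants had 3.40% and 3.04% CHH and 90.1% and 91.9% CG. The part of depth in these counts was not tested. Against Col-0 the lines in *rdd* had a higher mean at 45 of the 57 CHH cytosines. All 8 lines exceeded all 3 Col-0 plants at 18 cytosines, 24.3% of the 74, of which 17 are CHH, 10 of them in region 1 and 7 in region 2, and 1 is CG. All 8 lay below all 3 Col-0 plants at 4 cytosines (5.41%), 3 CG and 1 CHH. At the sites of the largest CG falls, 13038678 and 13038686, the lines in *rdd* with 63.3% and 72.2% stood beside 65.8% and 80.2% in Col-0.

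A further amplicon in the same libraries covers 27 cytosines in *MSH3* (AT4G25540), a mismatch repair gene that follows *FWA* on the opposite strand, at chr4:13044647-13044770 in exon 7 and the adjoining intron. There CG methylation of 7 cytosines was 75.0% ± 1.05 in the lines and 72.2% ± 0.792 in *rdd*, with every line above both plants (exact permutation p = 0.0222, adjusted p = 0.0333 over 3 contexts). This difference of 2.77 points has the opposite sign to that at *FWA*. The CG cytosine 13044701 went the other way, with 0.36% in the lines and 1.45% in *rdd*. The mean of 2 CHG cytosines was 27.0% ± 0.244 and 27.8% ± 0.0210, so it fell by 0.73 points (exact permutation p = 0.0222, adjusted p = 0.0333). These 2 were unlike each other. At 13044767 the lines had 54.0% and *rdd* 55.5%, and at 13044700 they had 0.047% and 0.030%, so the fall lay at 13044767. CHH methylation of 18 cytosines stood at 0.0795% ± 0.00557 and 0.0683% ± 0.00407 (exact permutation p = 0.0444, adjusted p = 0.0444), both below the CHH background of 0.123% that *fwa* plants had at *FWA*. The CHH rise of several points at *FWA* thus had no counterpart of that size in *MSH3*. Since *MSH3* had next to no CHH methylation in either group, this cannot show whether the rise is particular to *FWA*.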

How the data were processed

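Leaf DNA was bisulfite converted by the authors, amplified at 3 *FWA* regions with primers lying outside the measured cytosines, and sequenced. Reads were mapped with BSMAP 2.90 to TAIR10, per the labels and the study's methods, allowing 2 mismatches and keeping a single best hit per read. The methods also discard any read whose methylated CHH sites run beyond 3 in a row, in wording written for whole-genome libraries. If applied here, this would lower CHH levels in every group. Deposited files list for each cytosine the counts of C and of C plus T reads and their fraction. The level is the count of C reads over all reads, in percent, at cytosines with at least 10 reads in every library. It departed from the deposited fraction by at most 0.05 percentage points.

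Bisulfite conversion at *FWA* was gauged by the *fwa* plants. In the compared libraries themselves, CHH levels at *MSH3* were 0.0795% in the lines and 0.0683% in *rdd*, which include any unconverted cytosine there. Lines and plants were the replicates, and p-values measure the spread between these libraries. No pair of libraries agreed within sampling noise. Means were compared with two-sided exact permutation tests (share of splits with an absolute difference at least as large), adjusted by Benjamini-Hochberg over 11 levels, 74 cytosines, 6 relations or 3 contexts. A quasi-binomial logistic model on the counts (statsmodels 0.14.6) was the alternative. The lowest count at a cytosine was 2461 reads in the lines and 5448 in *rdd*. The *MSH3* amplicon was defined by at least 1000 reads in each library.

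Every CG and CHG cytosine was named, with the 8 largest CHH rises and up to 3 largest CHH falls among cytosines where all lines lay on one side of both *rdd* plants. The highest CHH level per region and the largest CHH rises of region 3 were also named. Members, lists and tests were chosen with earlier results of these data known. Alternatives were other minimums of reads, the median over cytosines, pooled counts, the deposited fraction, cytosines in primers left out, a log-odds scale, each set of Col-0 plants, the replicate block, each plant left out and, chosen after seeing the data, doubled one-sided p-values and the model with each plant left out. Calculations ran under Python 3.11.15 (scipy 1.17.1).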

Additional observations from a re-analysis of the deposited data

Results flagged for a closer look

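Among 53 groups of values examined for a sample standing far from its fellows, 3 had one, where chance gives about 1 in 20. Line 19 stood low at the CHH cytosine 13038246 with 16.6% and at the CG cytosine 13038272 with 83.2%, and line 18 stood high in *MSH3* CHG with 27.6%.

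The effect of SDG2cd–ZF differed between *rdd* and Col-0 by the permutation test of the difference itself. The effect in *rdd* minus that in Col-0 was 65.5 points for CG over the regions, and 65.9, 63.6 and 66.9 points in regions 1, 2 and 3. It was 10.6 points for CHG over the regions and 14.0 points in region 2. For CHH it was 4.12 points over the regions (adjusted exact permutation p = 0.0395), 5.57 points in region 2 and 4.28 points in region 3.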

How the results depend on the processing

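The smallest attainable p sets most limits here: exact calls against *rdd* rest on 2 control plants. With a minimum of 1 read, which admits more cytosines, differences were -6.94 (CG), -9.11 (CG, region 2), -6.47 (CG, region 3), 6.56 (CHH), 10.1 (CHH, region 1) and 5.12 points (CHH, region 2), with adjusted exact p-values from 0.0611 to 0.140, and 10.9 points for CHG (adjusted exact p = 0.416). With the median over cytosines the same 6 levels in the same order were -8.79, -11.92, -0.148, 3.00, 1.69 and 4.57 points (adjusted p from 0.0611 to 0.778, exact test), and CHG of the lines in *rdd* over that of the lines in Col-0 was 4.19 points (adjusted p = 0.0559, exact test). With doubled one-sided p-values, chosen after seeing the data, the differences of -7.54, -9.97, -6.47, 4.42, 5.10 and 5.12 points had an adjusted p of 0.0698 by the exact test, and 0 cytosines were called in any direction. CHH cytosines called lower numbered 0 by the quasi-binomial model and on the log-odds scale.

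No paired analysis was possible for the lines against *rdd* because the labels match no line to a control plant. For the lines in *rdd* against those in Col-0, the replicate block over lines 7 and 15, which share a number only, gave 65.1, 63.97, 63.1 and 67.3 points for CG over the regions and in regions 1, 2 and 3, and 4.77 and 5.20 points for CHG over the regions and in region 2. With 2 pairs the smallest exact p is 0.5. With the effect in Col-0 taken against a single plant, labelled Col-0-Rep2, the effects in *rdd* and Col-0 differed in CHH by 3.23 points over the regions, 4.28 in region 2 and 3.24 in region 3, which no longer passed (adjusted exact p from 0.0642 to 0.0984). With the other 2 Col-0 plants alone, CHG in region 3 differed by 4.27 points and passed (adjusted exact p = 0.0362).

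With 1 plant left out at a time, the difference from *rdd* lay between -8.40 and -6.68 points for CG, -6.52 and -4.61 in region 1, -10.9 and -9.06 in region 2, and -7.28 and -5.67 in region 3. For CHH it lay between 4.09 and 4.97 points, 4.75 and 5.62 in region 1, 4.78 and 5.72 in region 2, and 2.49 and 3.31 in region 3. Without any 1 line but 19, levels that had passed had an adjusted exact p of 0.0509, and without an *rdd* plant the smallest exact p is 0.111. The difference between effects in CHH lay between 3.94 and 4.30 points (adjusted exact p from 0.0336 to 0.0501). The exact test called 0 to 8 CG and 0 to 1 CHH cytosines lower and 0 to 41 CHH and 0 to 1 CHG cytosines higher, and the model, chosen after seeing the data for this purpose, 0 to 8, 0 to 1, 0 to 43 and 0 to 1. Pearson's r ranged from 0.285 to 0.808 for CG and CHG, 0.0064 to 0.792 for CG and CHH, 0.769 to 0.924 for CHG and CHH, -0.819 to -0.530 for depth and CG, -0.909 to -0.780 for depth and CHG, and -0.952 to -0.657 for depth and CHH. Single CG cytosines whose difference changed sign were 13038385 (-2.42 without *rdd* plant 1 and 0.38 without plant 2), 13038575 (-0.40 and 0.54), 13038596 (-0.88 and 1.37) and 13038606 (-2.22 and 0.21), and the cause was not tested.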
